A study of Saccharomyces cerevisiae with 78 samples.

Results

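M491-F02 is 1 of 25 yeast clones in the series that carry a fusion gene, a gene made by joining pieces of other yeast genes, on a plasmid. The 3 libraries titled with this clone were compared with the 3 libraries of the empty plasmid. They are 6 of 78 libraries in all, and the 72 libraries of the other 24 clones served as the reference for how particular a change was. Every group, the control included, was the haploid laboratory strain BY4742 of Saccharomyces cerevisiae, which is of the alpha mating type and lacks working HIS3, LEU2, LYS2 and URA3 genes. All were grown to the middle of logarithmic growth in SDCGal-Ura, a galactose medium without uracil in which cells must keep the plasmid, and polyadenylated RNA was sequenced. The labels give the fused genes of no clone. They call the replicates biological, and the design text speaks of triplicate transformants. It names 22 clones, where the labels hold 25. By the library names, replicates 1 and 2 of each group form a first set, and replicate 3 was resubmitted. Control replicates 1 and 2 carry the plasmid name p416-GAL1 in their library names, and control replicate 3 carries PP2061, though both are labelled as control plasmid.

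The transcript that set M491-F02 apart belongs to the chaperonin CCT, also called TRiC. CCT is a double ring in the cytosol in which newly made actin, tubulin and other proteins fold. Each ring is built from 8 different subunits, TCP1 and CCT2 to CCT8, and each subunit is made from a gene of its own. Prefoldin hands unfolded actin and tubulin to the ring, and phosducin-like proteins such as PLP2 work with it.

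The 6 libraries held 11529353 to 15351634 counts, and the 78 held 10773809 to 18981572. Levels below are CPM, counts scaled to a common library size by TMM. A gene is said to have risen or fallen where its adjusted p in edgeR's quasi-likelihood test was under 0.05. MF(ALPHA)1, STE3 and SAG1, genes of alpha cells, were present in all 6 libraries, and the a-cell genes STE2 and BAR1 stood between 9.76 and 23.2 CPM. MF(ALPHA)2, also a gene of alpha cells, stood between 15.3 and 38.7 CPM, which overlaps that range. The a-cell genes MFA1, MFA2 and AGA2 had no row. GAL2, GAL1, GAL10 and GAL7, which take up and break down galactose, were among the most abundant transcripts, at 7424 CPM or more in each of the 3 M491-F02 libraries. Over genes, log2 CPM correlated at 0.998 between M491-F02 replicates 1 and 2, and at 0.9747 and 0.9749 between these and replicate 3.

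The fusion construct was examined first. The files pool the counts on all construct sequences into 1 unnamed row. In M491-F02 this row held 1.60%, 1.52% and 1.53% of all counts in replicates 1, 2 and 3. In the control it held 0.470%, 0.428% and 0.339%. The groups did not overlap, and their means were 1.55% ± 0.0426 and 0.412% ± 0.0665 (SD, n = 3 each), a ratio of 3.76. An exact two-sided permutation test gave p = 0.1, the smallest that 3 against 3 libraries allow. The counted stretch is 2328 bases long for M491-F02 and 66 for PP2061, and the row does not say which construct a read fell on.

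Against the empty plasmid, 24 of 5212 genes tested changed (0.46%), 18 higher (0.345%) and 6 lower (0.115%). CCT6 was the only one of them to change at least 2-fold. M491-F02 stood 22nd of the 25 clones by its number of changed genes. The median log2 fold change over all genes was 0.000836, and 93.4% of genes lay within 0.25 of 0 on the log2 scale. Without a term for the library set, CCT6 alone was called. The number changed in other fits too, given under the processing of the data.

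CCT6 (YDR188W), which encodes a subunit of the chaperonin, stood at 191, 194 and 839 CPM in M491-F02 replicates 1, 2 and 3. In the control it stood at 98.9, 104 and 116 CPM. All 3 M491-F02 libraries were above all 3 control libraries, and the resubmitted M491-F02 library was far above the first-set pair. These levels rest on 2930, 2733 and 9230 counts in M491-F02 and 1479, 1571 and 1417 in the control. The means were 408 ± 373 and 106 ± 8.84 CPM (SD, n = 3 each), and the log2 fold change was 1.84 (SE 0.192, adjusted p = 1.12e-09). Most of that size came from 1 library, since without M491-F02 replicate 3 the log2 fold change was 0.94 (adjusted p = 6.27e-14). With the 6 libraries alone in the fit it was 1.56 and did not pass (adjusted p = 0.0766).

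**Figure D1:**
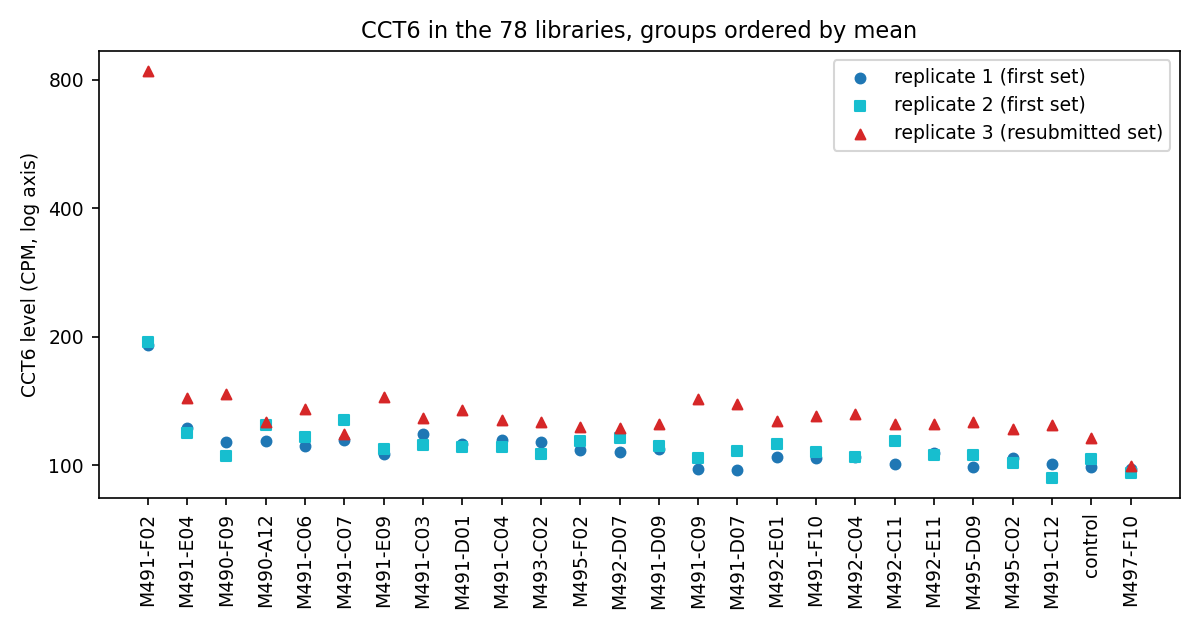
CCT6 level in CPM (log axis) in each of the 78 libraries, with the 26 groups along the horizontal axis in order of their mean and a symbol for each replicate. The 3 M491-F02 libraries, at 191, 194 and 839 CPM, lie above the 72 libraries of the other clones, which span 93.6 to 147 CPM.

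The other clones gave the range of CCT6 in the same experiment. Their 72 libraries spanned 93.6 to 147 CPM, so that all 3 M491-F02 libraries lay above every one of them. The means of the other 24 clones ran from 97.7 to 128 CPM with a median of 115 CPM, the highest being M491-E04. Against the mean of these clones the log2 fold change of CCT6 was 1.72 (SE 0.113, adjusted p = 7.1e-18). Each library name holds a letter, read here as a plate row, though the labels do not call it that. By this letter M491-F02 and the control stood in different rows. M491-F02 was therefore also compared with the 5 clones of its own rows in both sets. These were M491-E09, M491-F10, M492-C04, M492-C11 and M492-D07, called the row C clones here. CCT6 was higher by the same 1.72 there (SE 0.129, adjusted p = 2.63e-15). The 3 comparisons share the M491-F02 libraries and are not independent of each other.

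The difference in CCT6 was not the same size in the 2 library sets. In the first set CCT6 was 1.90-fold the control level, with log2 differences of 0.95 and 0.90 between libraries of the same number. In the resubmitted set, with 1 library against 1, it was 7.23-fold. Within M491-F02 the level was 4.35-fold higher in the resubmitted library than in the first set, a log2 change of 2.12. In the other 25 groups that change lay between -0.04 and 0.51 on the log2 scale, with a median of 0.24. The set change of CCT6 in M491-F02 was larger by 1.93 than that of the control and by 1.88 than that of the other clones, in a fit with a set change of its own for M491-F02. These 2 values rest on 1 resubmitted M491-F02 library, with no replicate in its set, and the fit was chosen after the level of 839 CPM was seen, so they describe that library. CCT6 was the only gene of 5212 past the threshold in that fit (0.0192%), in which the spread comes from the other libraries and groups. The construct row, at 1.53% in that library against 1.60% and 1.52% in the first set, was not higher in it.

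The other 7 subunit genes of the ring did not pass the test in any of the 3 comparisons. Over all genes tested 0.46% passed against the control, 2.21% against the other clones and 1.17% against the row C clones. TCP1 stood at 177, 172 and 215 CPM in M491-F02 against 182, 183 and 218 in the control. CCT4 stood at 214, 219 and 357 CPM against 205, 216 and 358. In both genes the groups overlapped, and the resubmitted library was the highest of each group. The log2 fold changes of the 7 against the control ran from -0.05 for TCP1 to 0.03 for CCT2, with adjusted p values of 0.836 and above. Their 95% intervals together spanned -0.22 to 0.23 on the log2 scale. The 7 summed to 1407, 1375 and 1876 CPM in M491-F02 and 1353, 1358 and 2015 CPM in the control, also overlapping.

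**Figure D2:**
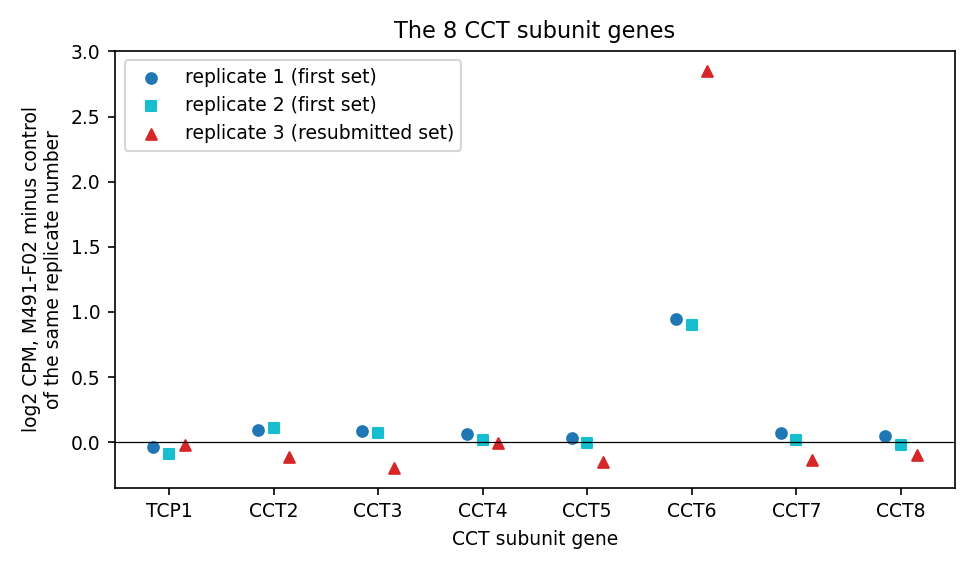
Difference in log2 CPM between M491-F02 and the control library of the same replicate number, for the 8 CCT subunit genes along the horizontal axis. CCT6 lies at 0.95, 0.90 and 2.85, and the other 7 genes lie near 0 in every replicate.

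Per kilobase of coding length, the level of CCT6 was the lowest of the 8 subunits in each control library, at 60.2, 63.2 and 70.7 CPM per kilobase. In M491-F02 replicates 1 and 2 it stood at 116 and 118 CPM per kilobase and was the 5th highest of the 8. The other 7 spanned 95.5 to 142 in replicate 1 and 88.2 to 138 in replicate 2 on the same scale. CCT6 was the highest of the 8 only in the resubmitted library, at 511 CPM per kilobase with the other 7 between 109 and 225.

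The partners and clients of the ring were looked at next. None of the 8 genes of prefoldin and the CCT cofactors with a row passed the test against the control. Over all genes tested 0.46% passed, so none of 8 is the usual outcome. The median log2 fold change of the 8 was -0.19. GIM3, a prefoldin subunit, had the lowest value of them at -0.28 (adjusted p = 0.107), with 60.1, 61.8 and 68.5 CPM in M491-F02 and 72.9, 70.4 and 88.7 CPM in the control. PLP2, the essential phosducin-like protein, had -0.17 (adjusted p = 0.443). The median of the 8 was -0.04 between the first-set libraries and -0.33 between the resubmitted ones. Of 13 rows for proteins that fold in the ring, such as actin and tubulin, none passed either, where 0.46% of all genes did. Their median was -0.01. ACT1, the actin gene, stood at 3237, 3171 and 3283 CPM in M491-F02 and 3024, 3116 and 3083 CPM in the control, with a log2 fold change of 0.07 (adjusted p = 0.734). Its groups did not overlap, as in 8.75% of all genes tested. TUB2, beta-tubulin, had a log2 fold change of -0.04 (adjusted p = 0.912).

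None of the 4 genes around CCT6 on its chromosome passed against the control, where 0.46% of all genes did. SLY1 (YDR189W), which serves vesicle fusion, stood at 115, 111 and 115 CPM in M491-F02 and 105, 103 and 112 CPM in the control. The log2 fold change of SLY1 was 0.09 against the control (adjusted p = 0.458), 0.17 against the other clones (adjusted p = 0.00264) and 0.17 against the row C clones (adjusted p = 0.00894), so it passed in the last 2. SND1 (YDR186C), of a pathway that targets proteins to the endoplasmic reticulum, had -0.10 against the control (adjusted p = 0.585). RVB1 (YDR190C), a helicase of chromatin remodelling complexes, had -0.15 (adjusted p = 0.235), and UPS3 (YDR185C) had -0.13 (adjusted p = 0.746). The labels do not say whether CCT6 is among the fused genes, and from which copy its reads came cannot be told apart in a count per gene.

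The other 17 genes that rose against the control rose by 0.20 to 0.38 on the log2 scale. In 14 of the 18 the 3 M491-F02 libraries lay above all 3 control libraries, as in 4.99% of all genes tested. GCG1 (YER163C), which breaks down glutathione, stood at 76.4, 74.5 and 74.7 CPM in M491-F02 and 61.2, 55.0 and 64.7 CPM in the control. It rose by 0.32 (SE 0.0563, adjusted p = 0.00106). EAF3 (YPR023C), a chromodomain subunit of the NuA4 acetyltransferase and Rpd3S deacetylase complexes, stood at 271, 285 and 295 CPM against 213, 223 and 249 CPM. The groups of both genes did not overlap, as the rule that named them required. EAF3 rose by 0.32 (SE 0.0592, adjusted p = 0.00237). Both also rose against the other clones, GCG1 by 0.17 (adjusted p = 0.0102) and EAF3 by 0.26 (adjusted p = 7.12e-05). EAF3 was still higher in M491-C06, whose mean of 309 CPM exceeded that of M491-F02, at 284 CPM.

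MRPL9, ISM1 and LSC1, whose products act in mitochondria, were among the genes that rose. MRPL9 (YGR220C), of the large mitochondrial ribosomal subunit, stood at 70.6, 69.6 and 82.5 CPM in M491-F02 and 58.0, 54.0 and 63.6 CPM in the control, and rose by 0.34 (SE 0.0724, adjusted p = 0.00878). ISM1 (YPL040C), the mitochondrial isoleucyl-tRNA synthetase, stood at 70.3, 67.1 and 67.8 CPM against 56.1, 56.1 and 55.3 CPM and rose by 0.29 (SE 0.0647, adjusted p = 0.0137). LSC1 (YOR142W), a subunit of succinyl-CoA ligase in the TCA cycle, stood at 381, 369 and 362 CPM against 328, 321 and 272 CPM and rose by 0.27 (SE 0.0595, adjusted p = 0.0108). In none of these 3 did the groups overlap, as the rule that named them required. MRPL9 and ISM1 did not pass against the other clones (adjusted p = 0.307 and 0.0922), while LSC1 did (adjusted p = 0.00824). The control mean of MRPL9 was below those of all 24 other clones. SAM35, of the sorting machinery in the outer mitochondrial membrane, rose by 0.24, IRC3, a mitochondrial helicase, by 0.24, and CBT1, needed for cytochrome b messenger RNA, by 0.24. PPT2, which activates the mitochondrial acyl carrier protein, rose by 0.38, but at 29.4, 24.99 and 22.4 CPM against 23.7, 19.9 and 15.3 CPM its groups overlapped. The groups of CBT1 overlapped too, at 38.8, 38.8 and 30.6 CPM against 32.0, 30.9 and 28.5 CPM. Of the listed genes as a whole, 1 of 61 of the mitochondrial ribosome and 1 of 17 of the TCA cycle rose, and none of 25 of oxidative phosphorylation. Over all genes tested 0.345% rose. Of the 61, 50 had a positive log2 fold change against the control, where 50.2% of all genes did. Against the other clones 46 of the 61 had a negative one, where 52.7% of all genes did.

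RPN5 and AGP3 also rose. RPN5 (YDL147W), of the proteasome lid, stood at 376, 378 and 375 CPM in M491-F02 and 307, 299 and 342 CPM in the control, and rose by 0.25 (SE 0.0565, adjusted p = 0.0144). It was the only one of 36 proteasome genes to pass, where 0.46% of all genes did. Against the other clones RPN5 had 0.03 (adjusted p = 0.758). Of the 36 proteasome genes 33 had a positive log2 fold change against the control, where 50.2% of all genes did, and 31 had a negative one against the other clones, where 52.7% did. Their median was 0.17 in the first set and -0.02 between the resubmitted libraries. AGP3 (YFL055W), an amino acid permease, stood at 27.9, 27.4 and 29.5 CPM against 20.5, 24.01 and 21.2 CPM and rose by 0.36 (SE 0.0821, adjusted p = 0.0155). PEX4, the peroxisomal ubiquitin-conjugating enzyme, rose by 0.31, the joined row ASP3-4/ASP3-3, of asparaginase II genes that are near-identical copies, by 0.26, and GPI16, of the enzyme that attaches GPI anchors, by 0.27. RIM20, of the Rim101 processing pathway, rose by 0.23, GTR2, a GTPase that acts on TORC1, by 0.20, and YMR262W by 0.30. The groups of GPI16 and YMR262W overlapped. AGP3, PEX4 and ASP3-4/ASP3-3 did not pass against the other clones (adjusted p = 0.206, 0.097 and 0.125). The control means of RPN5 and AGP3 were below those of all 24 other clones.

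MF(ALPHA)1 and AFB1, whose products are made by alpha cells, were 2 of the 6 genes that fell. MF(ALPHA)1 (YPL187W), the pheromone alpha-factor, stood at 388, 329 and 280 CPM in M491-F02 and 865, 788 and 304 CPM in the control. The first-set libraries of the groups lay far apart and the resubmitted ones close together, with log2 differences of -1.21 and -0.12, so that the groups overlapped. It fell by 0.89 in the fit (SE 0.205, adjusted p = 0.0172). AFB1 (YLR040C), the barrier to a-factor made by alpha cells, stood at 80.4, 80.1 and 86.7 CPM against 94.8, 91.6 and 111 CPM and fell by 0.26 (SE 0.0528, adjusted p = 0.00722). Its groups did not overlap, as the rule that named it required. Over all genes tested 0.115% fell. The other 7 of 9 alpha-specific rows did not pass. Among them were MF(ALPHA)2 at -0.61 (adjusted p = 0.0952), SAG1 at -0.50 (adjusted p = 0.171) and STE3, the receptor for a-factor, at -0.36 (adjusted p = 0.112). SAG1 had -0.71 in the first set and 0.03 between the resubmitted libraries, and STE3 had 0.00 against the other clones. Of the 9 rows 7 were negative and 2 positive against the control. Against the other clones 5 were negative and 4 positive.

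TIP1 (YBR067C), a mannoprotein of the cell wall, stood at 513, 465 and 477 CPM in M491-F02 and 829, 854 and 658 CPM in the control. All 3 M491-F02 libraries were below all 3 of the control, as the rule that named TIP1 required. TIP1 fell by 0.69 (SE 0.165, adjusted p = 0.0256). It was the only one of 25 genes listed for cell wall integrity to pass, where 0.46% of all genes did. INA1 (YLR413W) stood at 40.8, 37.8 and 83.2 CPM against 69.1, 69.1 and 212 CPM. The groups of INA1 overlapped, because the resubmitted library was the highest in each, and it fell by 0.995 on the log2 scale, to 0.502 of the control level (SE 0.186, adjusted p = 0.00237). NFG1 (YLR042C), a negative regulator of filamentous growth, fell by 0.46 (SE 0.105, adjusted p = 0.0155), and RKM5 (YLR137W), which methylates a ribosomal protein, fell by 0.32 (SE 0.0661, adjusted p = 0.00722). The groups of RKM5 overlapped.

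**Figure D3:**
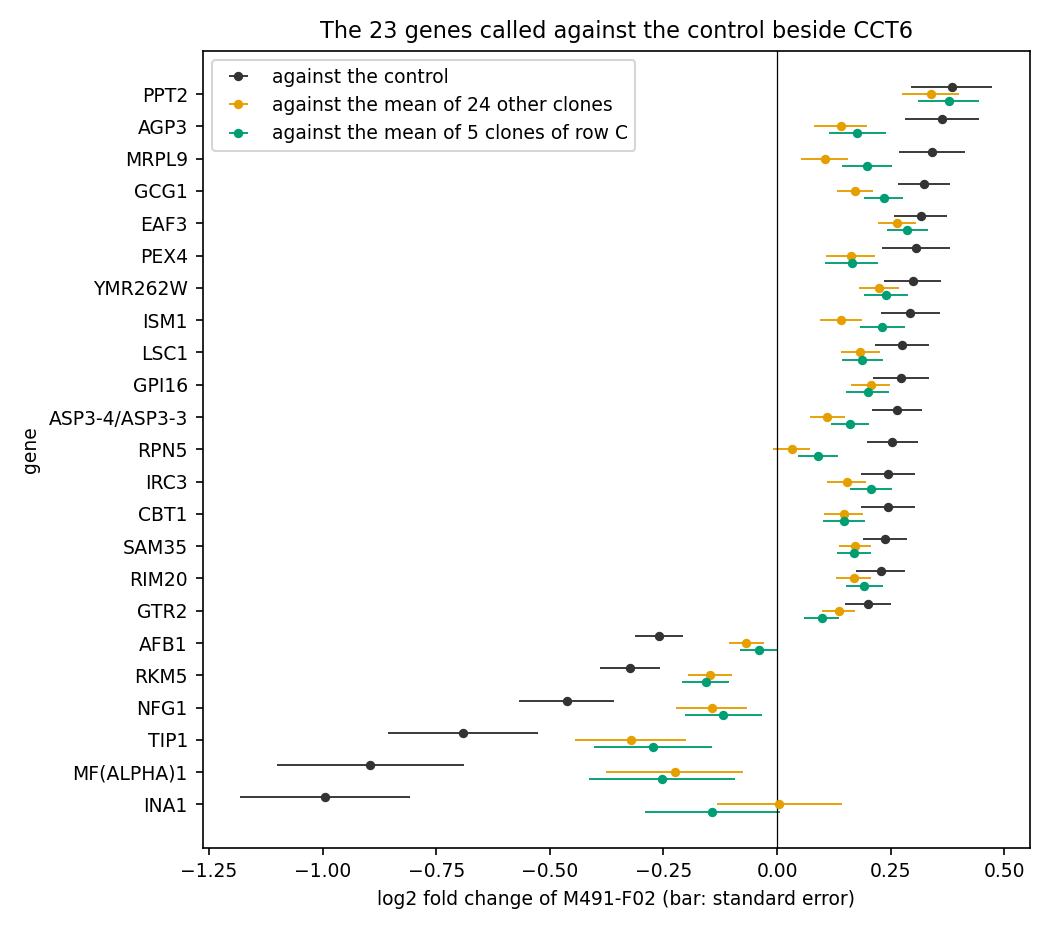
Log2 fold change of M491-F02, with its standard error as a bar, for the 23 genes other than CCT6 that passed against the control, in each of the 3 comparisons. The 17 genes that rose stay on the right of 0 in all 3. All 23, those that rose and those that fell, lie nearer to 0 against the other clones than against the control. The 23 were picked for passing against the control, a choice that by itself favours larger values there.

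These 6 genes were also low in many other clones. None of them passed against the mean of the other clones or against the row C clones. INA1 had 0.00 against the other clones (adjusted p = 0.992), and the control mean, at 117 CPM, was above that of all 24 of them, whose means spanned 37.4 to 100.5 CPM. MF(ALPHA)1 had -0.23 (adjusted p = 0.479), and the control, at 652 CPM, was again above all 24 means, which spanned 224 to 610 CPM. TIP1 had -0.32 (adjusted p = 0.159), with 22 of the 24 clones above M491-F02 and 2 above the control. The comparisons share the M491-F02 libraries, and whether a gene's difference from the control was larger than its difference from the other clones was not tested.

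Against the mean of the other 24 clones 115 genes changed (2.21%), 91 higher (1.75%) and 24 lower (0.46%). The 3 libraries of 2 genes lay outside the range of the 72 other clone libraries (0.0384%). The first was CCT6. The second was DCR2 (YLR361C), a protein phosphatase gene, at 128, 133 and 122 CPM against 96.8 to 121 CPM, and it rose by 0.20 (SE 0.0338, adjusted p = 0.000347). Against the control its log2 fold change was 0.18 and did not pass (adjusted p = 0.06).

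Beyond CCT6, the 6 largest rises among genes of at least 10 CPM were those of FET3, SUL2, SEO1, GDH1, RAX2 and GNP1, a choice made after their values were seen. FET3 (YMR058W), the multicopper oxidase of iron uptake, stood at 556, 564 and 773 CPM in M491-F02 with clone means of 204 to 789 CPM elsewhere and rose by 0.56 (SE 0.15, adjusted p = 0.0304). GNP1 (YDR508C), a glutamine permease, stood at 554, 524 and 442 CPM with clone means of 190 to 510 CPM and rose by 0.38 (SE 0.0666, adjusted p = 0.00049). GDH1 (YOR375C), glutamate dehydrogenase, stood at 625, 576 and 832 CPM with clone means of 342 to 1107 CPM and rose by 0.44 (SE 0.113, adjusted p = 0.0214). None of the 3 passed against the control, where they had log2 fold changes of -0.23, -0.01 and 0.11. The control mean of GNP1, at 519 CPM, was above those of all 24 other clones. That of FET3 was above 22 of them and that of GDH1 above 20. SUL2, a sulfate permease, stood at 172, 179 and 68.1 CPM, with the resubmitted library far below the others, and rose by 0.49 (adjusted p = 0.0185). SEO1, a putative permease, stood at 30.2, 32.4 and 31.2 CPM and rose by 0.48 (adjusted p = 0.0448), and RAX2, which acts in bud site selection, stood at 132, 114 and 106 CPM and rose by 0.41 (adjusted p = 0.046). These 3 did not pass against the control either.

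HSP26, AHP1, TRX2, GRX1 and RNR2 were among the 24 genes that fell against the other clones. HSP26 (YBR072W), a small heat shock protein, stood at 1678, 1839 and 1578 CPM in M491-F02, with means of 1638 to 6843 CPM in the other clones and 1543 CPM in the control. It fell by 0.43 (SE 0.107, adjusted p = 0.0169), and 20 of the 24 clones had a higher mean than M491-F02. Of 31 genes of peroxide defence 3 fell, the peroxiredoxin AHP1 by 0.23, the thioredoxin TRX2 by 0.21 and the glutaredoxin GRX1 by 0.19, where 0.46% of all genes fell. Against the control these 3 had log2 fold changes of 0.20, -0.12 and -0.06 and did not pass, so that AHP1 lay on the other side of 0 there. The control means of HSP26 and AHP1 were below those of all 24 other clones. M495-F02 had the highest clone mean of HSP26, AHP1, TRX2 and GRX1. TRX2 stood at 336, 344 and 199 CPM in M491-F02 and GRX1 at 301, 274 and 196 CPM. In both genes the resubmitted library was the lowest, as in the control. RNR2, a ribonucleotide reductase subunit, fell by 0.22, and it also lay apart from the control at 636, 617 and 654 CPM against 711, 709 and 725 CPM, though it did not pass there (adjusted p = 0.328). For RVB2 and YGR122W, which also came out lower, the mean of the others was set by 1 clone, M497-F10, at 10571 and 5479 CPM.

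Against the row C clones 61 genes changed (1.17%), 50 higher (0.959%) and 11 lower (0.211%). Of 32 genes in the list named for nitrogen catabolite repression 4 rose, where 0.959% of all genes did. They were the permeases GNP1 by 0.43, TAT1 by 0.34 and TAT2 by 0.27, and DAL2, allantoicase, by 0.22. Whether these genes are under that control was not tested. TAT1 stood at 133, 124 and 206 CPM in M491-F02, with the resubmitted library far above the others. Against the control, TAT1 and TAT2 had log2 fold changes of 0.02 and -0.08 and did not pass. The control mean was above those of all 24 other clones for TAT2 and above 19 of them for TAT1. RNR2 fell by 0.36, with the mean of M492-C04, at 1302 CPM, the highest of the row, and ILV3, of branched-chain amino acid synthesis, fell by 0.30 (adjusted p = 0.0398). CCT6, PPT2, GCG1, EAF3, YMR262W, LSC1, GPI16, IRC3, SAM35 and RIM20 passed in each of the 3 comparisons, which share the M491-F02 libraries.

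In 44 of 50 gene lists, which hold 1074 gene rows in all, no member passed against the control. Over all genes tested 0.46% passed, so a list with no passing member is the usual outcome. The medians of the 50 lists lay between -0.26 and 0.18 on the log2 scale. Of 13 genes of galactose use none passed, with a median of -0.04. GAL1, galactokinase, stood at 17765, 18626 and 22740 CPM in M491-F02 and 18050.5, 20985 and 21418 CPM in the control. No member passed in heat shock chaperones, the unfolded protein response, general stress or the cytosolic ribosome. Over all genes tested, 50.2% had a positive and 49.8% a negative log2 fold change. In ribosome biogenesis 81 of 93 genes had a negative one, with a median of -0.15, and among genes of amino acid synthesis under Gcn4 46 of 52 did, with a median of -0.19. In gluconeogenesis and the glyoxylate cycle 12 of 13 were positive, with a median of 0.18, while against the other clones 7 of the 13 were negative. None of these genes passed, and members of a list are not replicates.

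**Figure D4:**
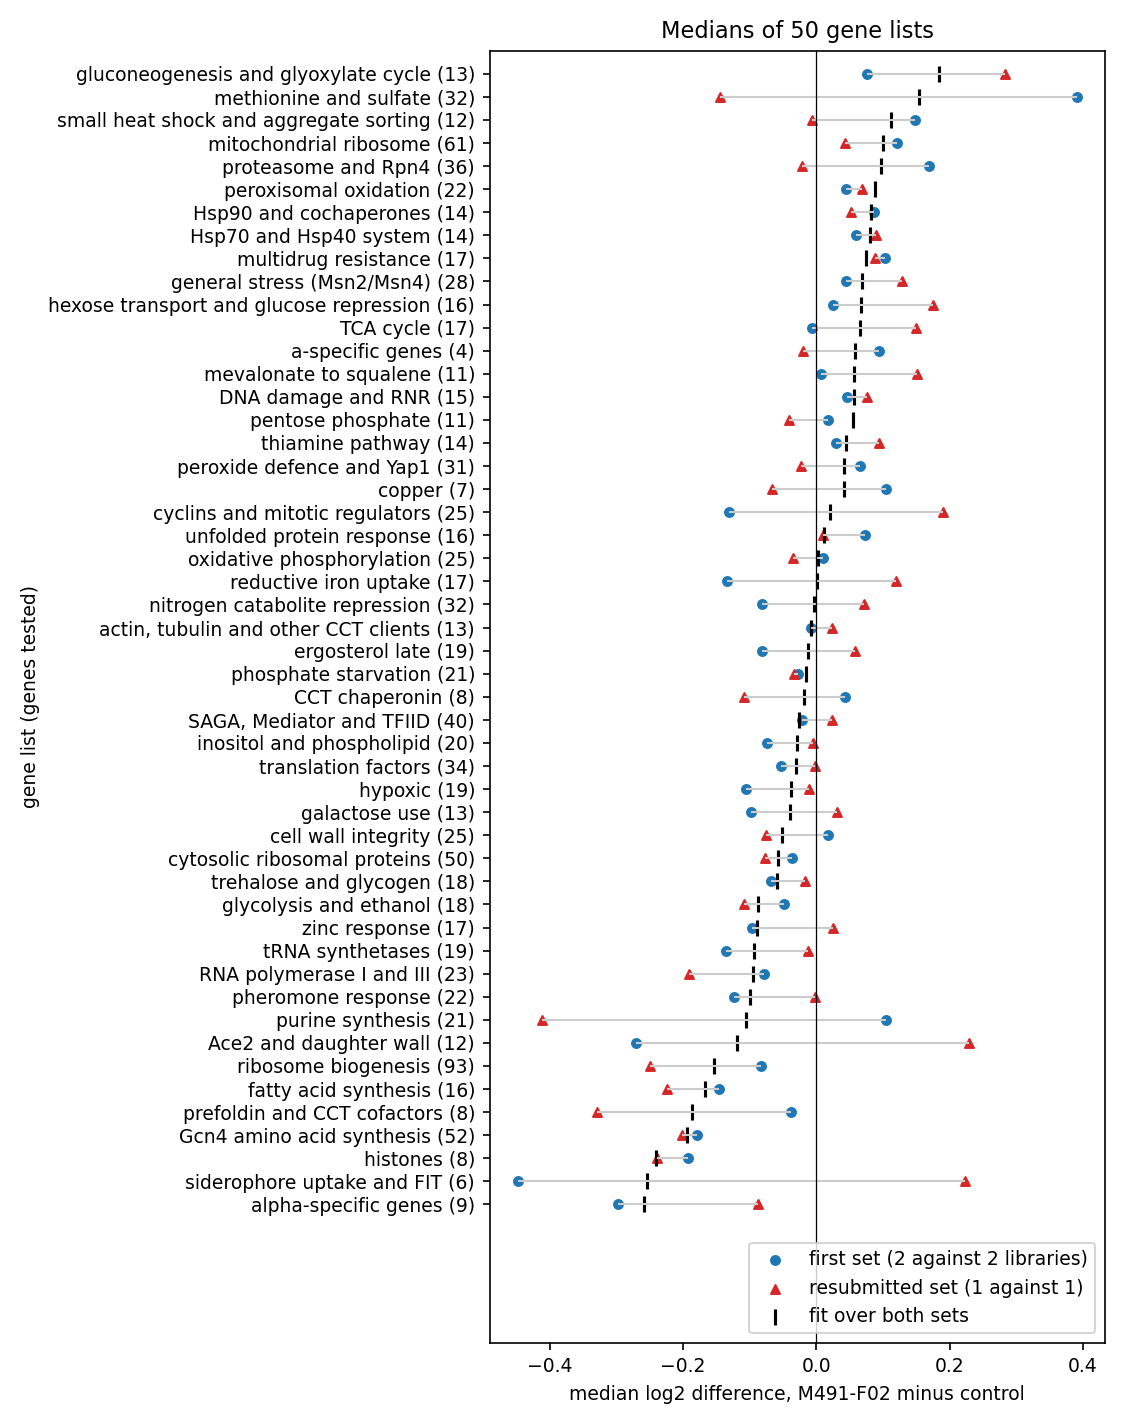
Median log2 difference between M491-F02 and the control over the tested genes of each of 50 lists, with the number of genes in brackets, for the first set, the resubmitted pair and the fit over both sets. In 22 lists the medians of the first set and the resubmitted pair have opposite signs.

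In 22 of the 50 lists the median of the first set and that of the resubmitted pair had opposite signs. Methionine and sulfate genes had medians of 0.39 and -0.14, siderophore uptake genes -0.45 and 0.22, and purine synthesis genes 0.10 and -0.41. FIT2, a cell wall protein that holds iron carriers, stood at 676, 638 and 373 CPM in M491-F02 and 1113, 1226 and 372 CPM in the control. The first-set libraries of FIT2 were apart and the resubmitted ones alike. MET17, of methionine synthesis, stood at 980.4, 893 and 737 CPM against 649, 624 and 806 CPM, higher in the first set and lower in the resubmitted pair. Neither gene passed (adjusted p = 0.386 and 0.751).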

How the data were processed

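The deposited files hold counts per gene, whole numbers with no normalization that the authors made from reads of polyadenylated RNA. Per the labels, fastp 0.23.1 trimmed the reads and removed duplicates by molecular identifier, STAR 2.5.2b aligned them, and featureCounts from Subread 1.5.2 counted those with a unique hit. Build R64 is named by the submitters' processing notes, but per the file headers the contigs are those of another assembly, so the R64 tables served for gene names and neighbours alone, and no coordinates or sequences are given. Of 5229 gene rows 5058 matched 1 locus tag, 129 join several genes and 42 did not match. The unnamed construct row and the UNDEF row (2.33% of counts in M491-F02) stayed out of library sizes and tests. How reads shared by a gene and a construct were treated is not given in the sources used here.

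All 78 libraries entered 1 edgeR 4.0.16 fit in R 4.3.3 with terms for group and library set, TMM scaling, filterByExpr (5212 genes kept, 17 left out), quasi-likelihood tests with 51 residual degrees of freedom, and Benjamini-Hochberg adjustment within each comparison at 0.05. DESeq2 1.42.0 was an alternative. Log2 CPM values used a prior count of 2. Intervals cover 95%. Construct shares were compared with an exact permutation test. The genes named against the control were up to 12 on each side, and against the other clones up to 6, by size of change, where the level reached 10 CPM and libraries did not overlap. The other called genes, and those beyond the 8 CCT subunits and short lists, were named after their values were seen. The clone, the lists and the comparisons were chosen with earlier results of these data known.

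Libraries of the same number deviated together from their group means (correlations of 0.744, 0.642 and 0.805), which follows the library sets. Replicates 1 and 2 differed by a chi-square per gene of 4.19 in M491-F02 and 7.83 in the control, so none was taken as a duplicate. The labels do not name separate cultures, so p-values measure the spread between these libraries.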

Additional observations from a re-analysis of the deposited data

Results flagged for a closer look

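The difference in CCT6 between M491-F02 and the control was larger in the resubmitted set than in the first set by a log2 value of 1.93 (SE 0.147 and adjusted p = 9.73e-15 in edgeR's quasi-likelihood test with a set change for M491-F02 and for the control). The test was chosen after the level of CCT6 in the resubmitted M491-F02 library had been seen. It rests on 1 resubmitted library in each group, so the spread behind its p comes from the other libraries and groups, and it describes these libraries. The M491-F02 library at 839 CPM held 11529353 counts, the fewest of the 6.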

How the results depend on the processing

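The 24 genes against the control became 1 without the set term and 549 with the first set alone (276 higher, 273 lower). They became 72 with 3 batches (the resubmitted libraries with the letter A apart). Leaving out 1 of the 6 libraries gave 7 to 25, the lowest without control replicate 1 (10, 10 and 14 without M491-F02 replicates 1, 2 and 3). All 24 were among the 549 and the 72. The 115 against the other clones became 13, 902 and 306 in those fits, and 13 to 42 leaving out 1 M491-F02 library. The 61 against the row C clones became 8, 692 and 126, and 10 to 39. With the 6 libraries alone 17 genes passed (4 higher, 13 lower), of which 2 were among the 24. A block for the replicate number, which pairs the libraries, gave 24, 106 and 59 genes. DESeq2 gave 35 (20 higher, 15 lower), 146 (97 higher, 49 lower) and 75, RLE scaling 21, 104 and 61, and no filter 25, 119 and 63. The cause of these moves was not tested. The difference in the construct share, 1.14 percentage points, was 1.16 without UNDEF.

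Over 15 genes named against the control and 14 alternatives, 137 of 210 values kept their direction and their side of the threshold, 73 kept their direction but no longer passed, and 0 reversed. CCT6 passed in 13 of 14, with log2 fold changes of 0.93 to 2.14. At unadjusted p under 0.05, 619, 825 and 688 genes passed in the 3 comparisons. With 2 sets that differ and 1 resubmitted library a group, small changes rest on few libraries.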
